A study of Mus musculus with 6 samples.

Results

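The genes described here are those of insulin-like growth factor I (IGF-I), of the receptors and the adaptor that answer to it, and of 6 IGF-binding proteins. The 10 members were taken from a list of names: Igf1, Igf1r, Insr, Irs1, Igfbp2, Igfbp3, Igfbp4, Igfbp5, Igfbp6 and Igfbp7. All 10 were measured, out of 19938 genes in all, each by its brightest probeset (a group of probes read as 1 value) that carries a single gene symbol. Total RNA came from 6 mouse induced pluripotent stem (iPS) lines, each grown from 1 colony and read on 1 whole-transcript array. In the shECAD group, clones 4, 8 and 9, OG2 mouse embryonic fibroblasts received retroviruses for a hairpin RNA against E-cadherin (an shRNA, which lowers its target's mRNA) and for Sox2, Klf4, Oct4 and c-Myc. In the Ctrl group, clones 2, 3 and 4, the same 4 factors came with an shRNA against luciferase, a protein that mouse cells do not make. In both groups the infected cells were moved onto feeder cells on day 6, colonies were picked on day 14, the lines were kept on feeders in mouse embryonic stem cell medium, and feeder cells were eliminated before RNA extraction. Separate infections are not stated, so n = 3 clones per group measures the spread between lines, and the number of arrays limits the precision.

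IGF-I and IGF-II are secreted growth factors. They bind the type 1 IGF receptor, a tyrosine kinase that resembles the insulin receptor, and the activated receptor phosphorylates docking proteins such as IRS1, which recruit phosphatidylinositol 3-kinase and so activate Akt. The binding proteins are secreted as well. They hold IGFs in the extracellular fluid, can block or prolong their action, and are cut by proteases that set the bound factor free. Embryonic fibroblasts, both the starting cells of these lines and the usual feeders, secrete IGFs and binding proteins into culture medium.

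As a check of the labels, Cdh1, the E-cadherin gene, read 6.75, 6.92 and 7.81 in shECAD clones 4, 8 and 9, against 9.18, 9.60 and 9.07 in Ctrl clones 2, 3 and 4 (log2 expression values throughout, 1 per clone in this clone order). Array medians lay between 5.20 and 5.30 in the shECAD clones and between 5.11 and 5.22 in the Ctrl clones.

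Among the IGF-binding protein genes, Igfbp7 rose 4.26-fold and Igfbp3 rose 3.00-fold in the shECAD clones, and these were the 2 members that passed the test (limma over all genes, Benjamini-Hochberg adjusted p below 0.05), while 0 members were called lower by limma. At an unadjusted p below 0.05, 7 members were higher and 0 lower, where 8.96% and 9.07% of all genes were. The fitted difference was positive for all 10 members, with log2 fold changes (shECAD minus Ctrl) from 0.36 for Igf1 to 2.09 for Igfbp7. The median was 0.60, against a median of 0.03 over all genes tested. In a fit with a fibroblast and feeder marker covariate 4 of the 10 lay below 0, each by less than its SE. These were Igf1 (-0.05 ± 0.38), Irs1 (-0.07 ± 0.85), Igfbp4 (-0.03 ± 0.37) and Igfbp5 (-0.31 ± 0.45). The covariate lies apart between the groups, so that fit cannot settle the sign of these 4. Over all genes tested 3.12% were called, 1.90% (378 genes) as higher in shECAD clones and 1.23% (245) as lower, but with each array centred on its median 298 were called higher and 383 lower. In 7 of the 10 members every shECAD clone lay above every Ctrl clone, and in 0 members every shECAD clone lay below, where 11.1% and 12.5% of all genes did so. These 7 were Igf1, Insr, Igfbp2, Igfbp3, Igfbp4, Igfbp6 and Igfbp7. Members and lists were chosen with earlier results of these data known. Counts set beside the shares of all genes, here and below, therefore describe the genes and do not test them as a set.

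**Figure D1:**
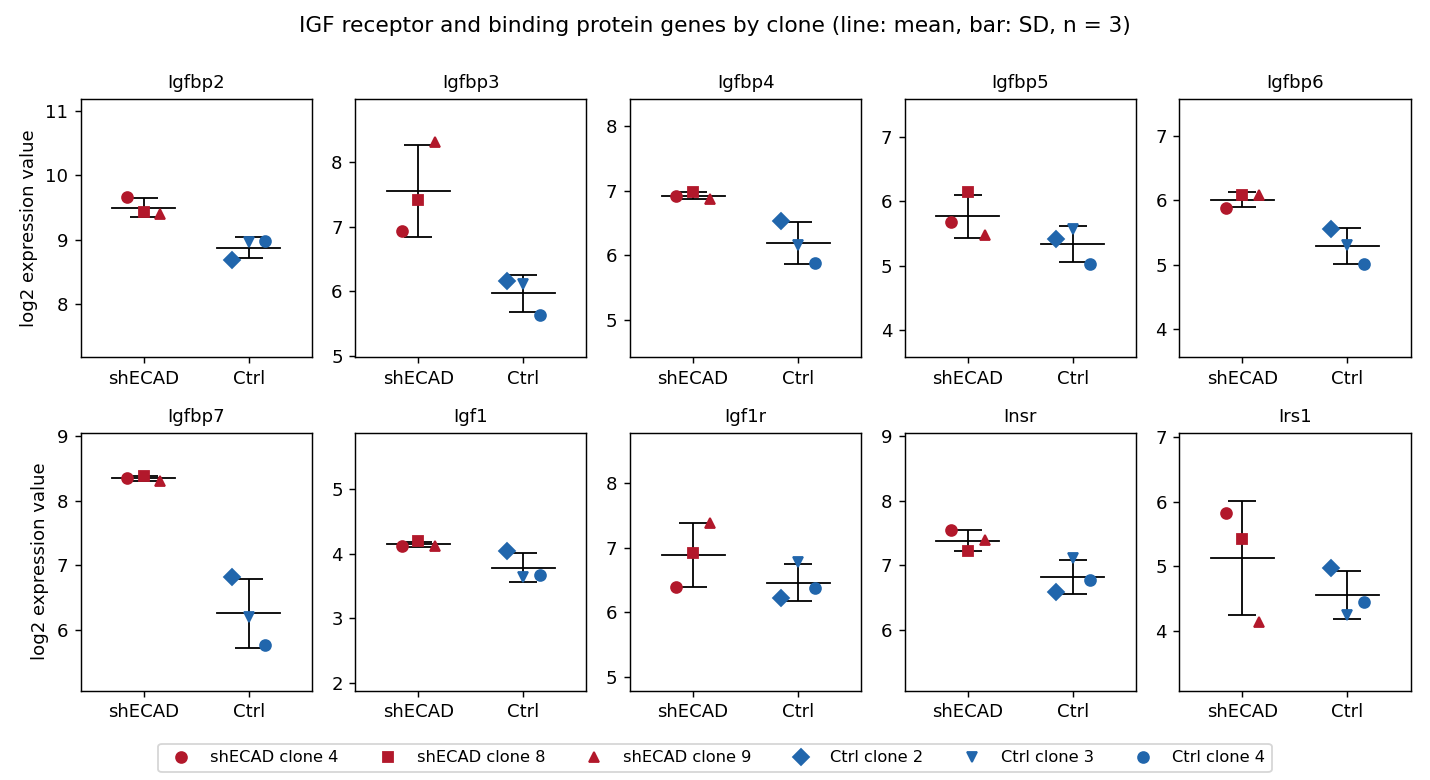
Log2 expression value (vertical axes, all spanning the same range of log2 units) of each of the 10 genes in the 3 shECAD and the 3 Ctrl clones, with the mean as a line and the SD as a bar. Igfbp7 lies close together in shECAD clones (8.30 to 8.39) and further apart in Ctrl clones (5.76 to 6.82), and Igfbp3 spreads more in shECAD clones (6.93 to 8.32) than in Ctrl clones (5.64 to 6.16).

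Igfbp7 encodes a secreted protein of the vessel wall and connective tissue that binds IGFs with low affinity. Its probeset (10530841) read 8.34, 8.39 and 8.30 in shECAD clones 4, 8 and 9, against 6.82, 6.19 and 5.76 in Ctrl clones 2, 3 and 4. The 3 shECAD clones were nearly equal, the Ctrl clones were spread over about 1 log2 unit, and the groups stood well apart. Igfbp7 averaged 8.34 ± 0.04 in shECAD clones and 6.26 ± 0.54 in Ctrl clones (SD, n = 3 each), a log2 fold change of 2.09 ± 0.24 (SE; 95% interval 1.56 to 2.62; limma adjusted p = 0.00456). In these bulk samples a difference in the number of cells of a type and a difference in RNA per cell cannot be told apart, for Igfbp7 as for every gene here. By absolute size the change was rank 24 of the 19938 genes. The adjusted p stayed between 0.000877 (without Ctrl clone 2) and 0.0215 (without shECAD clone 8) when any 1 clone was left out, and was 0.187 in a fit without variance moderation.

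Igfbp3 encodes the main carrier of IGFs in blood, where it forms a complex with the acid-labile subunit. Its values (probeset 10384223) were 6.93, 7.41 and 8.32 in shECAD clones 4, 8 and 9, against 6.16, 6.11 and 5.64 in Ctrl clones 2, 3 and 4. Here the shECAD clones were the more variable, with clone 9 highest and clone 4 lowest, and still no shECAD clone reached down to the Ctrl clones. Igfbp3 averaged 7.56 ± 0.71 in shECAD clones and 5.97 ± 0.29 in Ctrl clones (SD, n = 3 each), a log2 fold change of 1.59 ± 0.31 (SE; 95% interval 0.91 to 2.27; limma adjusted p = 0.0272). The call was lost without Ctrl clone 3 (adjusted p = 0.0522), Ctrl clone 4 (0.0981) or shECAD clone 8 (0.0740), and the change shrank to 1.20 log2 units when shECAD clone 9 was omitted (limma adjusted p = 0.0345).

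Igfbp4, Igfbp6 and Igfbp2 had smaller differences that just missed the threshold. Igfbp4, whose protein inhibits IGF action until the protease PAPP-A cuts it, read 6.91, 6.97 and 6.87 in shECAD clones 4, 8 and 9, against 6.53, 6.15 and 5.88 in Ctrl clones 2, 3 and 4. Its log2 fold change was 0.73 ± 0.18 (SE; 95% interval 0.33 to 1.14; limma adjusted p = 0.0616). As with Igfbp7, the shECAD clones were close together (SD 0.05) and the Ctrl clones further apart (SD 0.33). Igfbp6, whose protein prefers IGF-II over IGF-I, read 5.87, 6.07 and 6.08 in shECAD clones 4, 8 and 9, against 5.56, 5.30 and 5.00 in Ctrl clones 2, 3 and 4. The log2 fold change of Igfbp6 was 0.72 ± 0.18 (SE; 95% interval 0.33 to 1.11; limma adjusted p = 0.0580). In Igfbp3, Igfbp4, Igfbp6 and Igfbp7 alike, Ctrl clone 2 was the highest Ctrl clone and Ctrl clone 4 the lowest. Without Ctrl clone 2 both Igfbp4 and Igfbp6 passed the test (limma adjusted p = 0.0315 and 0.0445).

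Igfbp2 followed another order among the clones. Its protein carries an integrin-binding motif. Igfbp2 read 9.66, 9.43 and 9.39 in shECAD clones 4, 8 and 9, against 8.69, 8.96 and 8.98 in Ctrl clones 2, 3 and 4. The groups did not overlap, Ctrl clone 2 was the lowest rather than the highest Ctrl clone, and the log2 fold change was 0.62 ± 0.16 (SE; 95% interval 0.27 to 0.97; limma adjusted p = 0.0682). Igfbp5, whose protein binds the extracellular matrix and bone mineral, was, among the members, the binding protein gene whose groups overlapped. It read 5.67, 6.14 and 5.48 in shECAD clones 4, 8 and 9, against 5.41, 5.57 and 5.02 in Ctrl clones 2, 3 and 4, a log2 fold change of 0.43 ± 0.21 (SE; 95% interval -0.04 to 0.89; limma adjusted p = 0.321). The change of Igfbp5 was 0.24 without shECAD clone 8 and 0.27 without Ctrl clone 4.

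Some binding protein genes lie in pairs. Igfbp2 and Igfbp5 are adjacent on chromosome 1 and face each other on opposite strands, and Igfbp1 and Igfbp3 are adjacent on chromosome 11 in the same way, per the RefSeq gene table. Igfbp1, a binding protein gene of the liver, read 3.70, 3.48 and 4.37 in shECAD clones 4, 8 and 9, against 4.00, 3.53 and 3.98 in Ctrl clones 2, 3 and 4, levels near the 25th percentile of the arrays (3.84 to 4.01 in shECAD clones and 3.73 to 3.91 in Ctrl clones). Its log2 fold change was 0.01 ± 0.24 (SE, limma adjusted p = 0.985), and the groups overlapped. The change of Igfbp3 was larger than that of Igfbp1 by 1.57 log2 units (two-sided exact permutation p = 0.1, the lowest possible here). At the level of Igfbp1 a difference could not be measured well, which limits this comparison. The changes of Igfbp5 and its neighbour Igfbp2 differed by -0.19 log2 units (two-sided exact permutation p = 0.7, where 3 clones against 3 allow no p below 0.1).

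The bases before the annotated start are shown for the 4 binding protein genes with the largest changes, 2 that passed the test and 2 that just missed it, to show how these starts differ in sequence. Each line gives the 250 bases before the start in RefSeq (build GRCm38.p6), 5′ to 3′ on the gene's strand, with capitals at every TATAAA (the TATA box), at its variant TATATA and at the GC box bound by Sp1 factors, GGGCGG, on either strand.
Igfbp7 (chr5:77408046-77408295, minus strand): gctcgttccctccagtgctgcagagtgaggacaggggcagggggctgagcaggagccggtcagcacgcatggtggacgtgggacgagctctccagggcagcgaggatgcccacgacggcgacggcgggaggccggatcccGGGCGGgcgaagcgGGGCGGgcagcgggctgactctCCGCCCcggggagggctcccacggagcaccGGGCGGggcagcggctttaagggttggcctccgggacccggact
Igfbp3 (chr11:7213924-7214173, minus strand): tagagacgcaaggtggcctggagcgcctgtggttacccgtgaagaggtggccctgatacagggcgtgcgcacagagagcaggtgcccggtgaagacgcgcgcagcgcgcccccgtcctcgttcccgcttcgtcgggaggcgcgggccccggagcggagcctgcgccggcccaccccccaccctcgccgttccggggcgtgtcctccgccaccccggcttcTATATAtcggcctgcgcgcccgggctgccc
Igfbp4 (chr11:99040994-99041243, plus strand): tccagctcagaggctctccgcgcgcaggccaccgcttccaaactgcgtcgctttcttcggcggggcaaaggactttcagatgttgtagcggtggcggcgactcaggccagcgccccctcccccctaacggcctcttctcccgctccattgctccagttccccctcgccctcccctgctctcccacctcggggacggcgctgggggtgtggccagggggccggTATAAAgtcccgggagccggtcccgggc
Igfbp6 (chr15:102143936-102144185, plus strand): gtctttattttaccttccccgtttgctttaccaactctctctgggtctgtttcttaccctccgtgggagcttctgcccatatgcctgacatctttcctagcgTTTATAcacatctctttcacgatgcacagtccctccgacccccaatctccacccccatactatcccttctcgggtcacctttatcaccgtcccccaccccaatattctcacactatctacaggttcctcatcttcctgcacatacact
The Igfbp7 window holds 4 GC boxes and neither TATA form. The Igfbp3 and Igfbp4 windows hold 1 TATA form each, beginning 30 and 28 bases before the start, and 0 GC boxes. The TATAAA of Igfbp6, on the opposite strand, begins 148 bases before the start. Of all 32851 such windows in the table, 32.7% hold the GC box and 15.6% hold either TATA form. CpG dinucleotides number 26 in the Igfbp7 window, 32 in that of Igfbp3, 22 in that of Igfbp4 and 7 in that of Igfbp6, where the median over all windows is 6. Windows were found for 9 of the 10 members.

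The ligand gene Igf1 was read near the 25th percentile of the arrays in both groups. Igf1 read 4.13, 4.20 and 4.13 in shECAD clones 4, 8 and 9, against 4.04, 3.64 and 3.68 in Ctrl clones 2, 3 and 4. The Ctrl mean of 3.79 lies within the range of the 25th percentiles of the Ctrl arrays (3.73 to 3.91), and the shECAD mean of 4.15 just above those of the shECAD arrays (3.84 to 4.01). The groups did not overlap, but the log2 fold change of 0.36 ± 0.16 (SE; 95% interval 0.01 to 0.72) did not pass the test over all genes (limma adjusted p = 0.266).

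Neither receptor gene passed the test. Insr, the insulin receptor gene, read 7.55, 7.21 and 7.39 in shECAD clones 4, 8 and 9, against 6.59, 7.11 and 6.77 in Ctrl clones 2, 3 and 4. The groups were separate by a narrow margin, between shECAD clone 8 and Ctrl clone 3, and the log2 fold change was 0.56 ± 0.18 (SE; 95% interval 0.17 to 0.96; limma adjusted p = 0.124). A dimmer probeset of Insr gave a log2 fold change of 0.31 (limma adjusted p = 0.432 with every probeset tested). Igf1r, the gene of the type 1 IGF receptor, read 6.38, 6.92 and 7.38 in shECAD clones 4, 8 and 9, against 6.22, 6.77 and 6.38 in Ctrl clones 2, 3 and 4. These groups overlapped, and the log2 fold change was 0.43 ± 0.25 (SE; 95% interval -0.11 to 0.98; limma adjusted p = 0.391). In Igf1r, as in Igfbp3, shECAD clone 9 was highest and shECAD clone 4 lowest, and the change of Igf1r was 0.19 log2 units when shECAD clone 9 was omitted and 0.69 when shECAD clone 4 was.

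Irs1, the gene of the docking protein of both receptors, split the shECAD clones. It read 5.83, 5.42 and 4.13 in shECAD clones 4, 8 and 9, against 4.97, 4.25 and 4.45 in Ctrl clones 2, 3 and 4. Clones 4 and 8 lay above all Ctrl clones and clone 9 below all of them, the opposite of its place in Igf1r and Igfbp3. The log2 fold change was 0.57 ± 0.37 (SE; 95% interval -0.25 to 1.39; limma adjusted p = 0.461). It was 1.07 without shECAD clone 9 (limma adjusted p = 0.0628) and 0.22 without shECAD clone 4 (0.817). A second, dimmer Irs1 probeset gave a log2 fold change of -0.03 (limma adjusted p = 0.960 with every probeset tested).

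**Figure D2:**
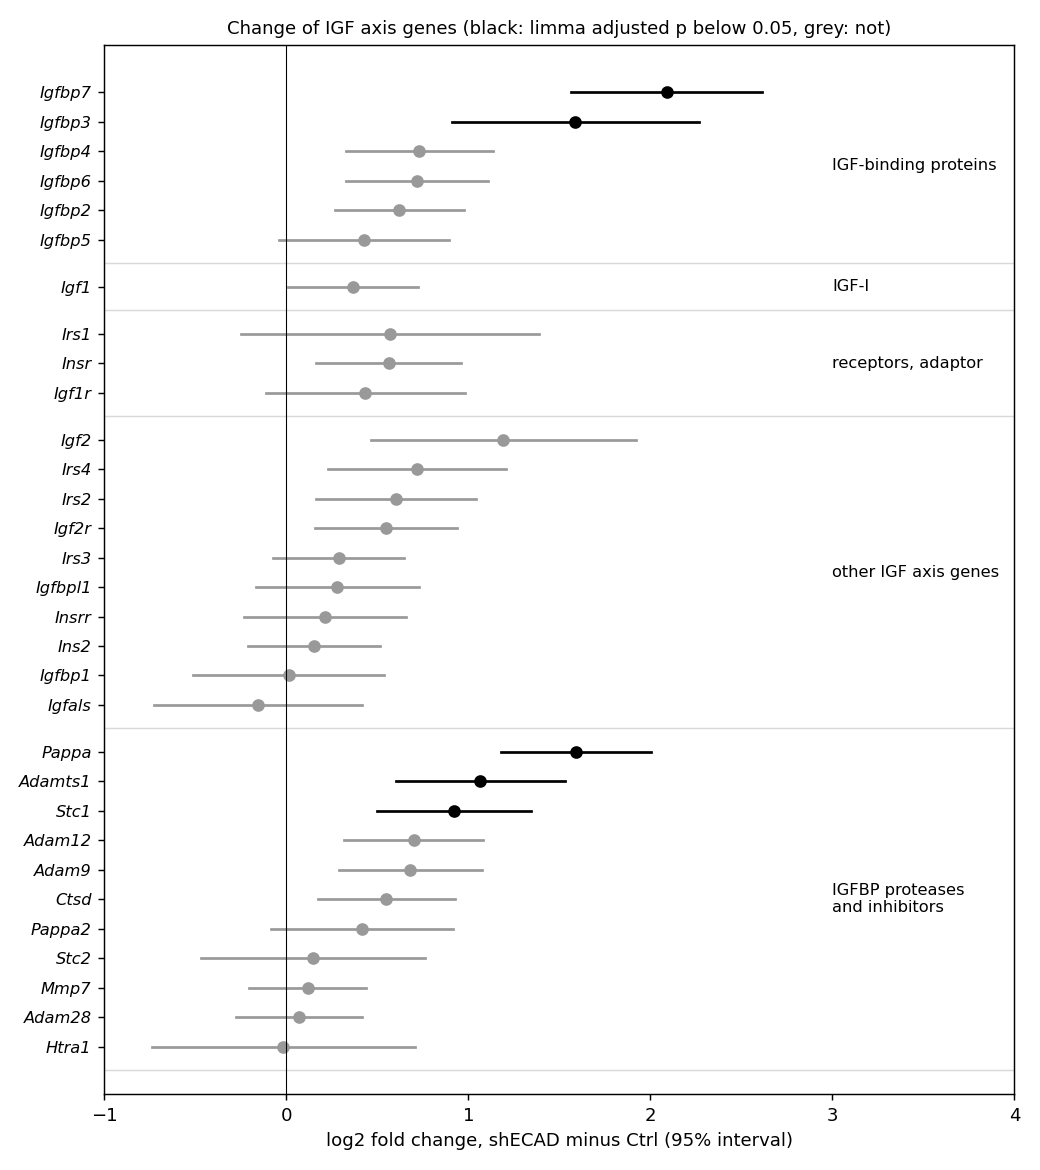
Log2 fold change, shECAD minus Ctrl (horizontal axis), with its 95% interval for the 10 genes, other IGF axis genes, and IGFBP proteases and their inhibitors. Black points passed the test: Igfbp7 and Igfbp3 among the binding proteins, and Pappa, Adamts1 and Stc1 among the proteases and inhibitors.

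Genes of enzymes that act on the binding proteins were read from a list of 11 proteases and protease inhibitors. Of these, 3 rose in the shECAD clones, 0 fell and 8 did not pass the test. Of all genes tested, 1.90% were called higher and 1.23% lower. The median log2 fold change of the 11 was 0.55 (0.03 over all genes tested). Pappa encodes PAPP-A, the metalloproteinase that cuts IGFBP4, and read 6.42, 6.67 and 6.15 in shECAD clones 4, 8 and 9, against 5.00, 4.88 and 4.58 in Ctrl clones 2, 3 and 4. Pappa rose 3.01-fold, by 1.59 ± 0.19 log2 units (SE, limma adjusted p = 0.00460), and with any 1 clone left out its adjusted p was at most 0.0233. Stc1, the gene of stanniocalcin 1, an inhibitor of PAPP-A, rose 1.90-fold (0.92 ± 0.19 SE, limma adjusted p = 0.0325). Adamts1, the gene of a secreted matrix protease, rose 2.09-fold (1.07 ± 0.21 SE, limma adjusted p = 0.0282). The call of Stc1 was lost without any 1 clone other than Ctrl clone 2 (limma adjusted p up to 0.131), and that of Adamts1 without Ctrl clone 3, Ctrl clone 4, shECAD clone 8 or shECAD clone 9 (up to 0.110). Of the 8 without a call, Adam12 (0.70 log2 units, limma adjusted p = 0.0590), Adam9 (0.68, adjusted p = 0.0694) and Ctsd (0.55, adjusted p = 0.112), all protease genes, had every shECAD clone above every Ctrl clone, and the others ran from -0.02 for Htra1 to 0.42 for Pappa2. At an unadjusted limma p below 0.05, 6 of the 11 were higher and 0 lower, where 8.96% and 9.07% of all genes were.

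No other gene of the IGF axis passed the test. For the counts that follow, 1.90% of all genes were called higher and 1.23% lower. At an unadjusted limma p below 0.05 the shares were 8.96% and 9.07%. Of 10 measured among 11 listed (Igf2, Igf2r, Ins2, Insrr, Irs2, Irs3, Irs4, Igfbp1, Igfbpl1 and Igfals), 0 passed the test in either direction by limma, 4 were higher and 0 lower at an unadjusted p below 0.05, and their median log2 fold change was 0.28. Igf2, the imprinted gene of IGF-II, read 8.29, 8.25 and 8.31 in shECAD clones 4, 8 and 9, against 7.82, 7.27 and 6.18 in Ctrl clones 2, 3 and 4 and differed by 1.19 ± 0.33 log2 units (SE, limma adjusted p = 0.0834). The difference of Igf2 was 1.56 without Ctrl clone 2, which passed the test (limma adjusted p = 0.0245), and 0.74 without Ctrl clone 4 (0.152). Downstream of the receptors, 26 of 29 listed genes of adaptors, phosphatidylinositol 3-kinase, Akt and mTOR complexes were measured. None of the 26 passed the limma test, 2 were higher and 0 lower at an unadjusted p below 0.05, and their median log2 fold change was -0.05. The values ran from -0.64 for Grb10 to 0.68 for Grb14, the genes of a pair of adaptors that inhibit insulin and IGF receptors. Among 11 partners of binding proteins outside the axis, 1 passed. It was Itgb1, the integrin beta 1 gene, which rose 1.92-fold, by 0.94 ± 0.15 log2 units (SE, limma adjusted p = 0.0143), a call lost without Ctrl clone 4 (limma adjusted p = 0.0687), shECAD clone 4 (0.0519) or shECAD clone 8 (0.0538). Of the genes of IGF2 mRNA-binding proteins, 2 of 3 were measured and neither passed by limma (0 higher and 1 lower at an unadjusted p below 0.05), with a log2 fold change of -0.47 for Igf2bp3 (limma adjusted p = 0.177).

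Many markers of fibroblasts and feeder cells rose beside the binding proteins. Of 24 measured markers of fibroblasts and feeder cells (25 listed), 15 rose and 0 fell, with a median log2 fold change of 0.96. Of all genes, 1.90% were called higher and 1.23% lower. The 4 with the largest rises were the matrix genes Lox (log2 fold change 2.35), Postn (2.26), Fbln2 (2.10) and Ccdc80 (2.05), called also with any 1 clone left out. The other markers of the list were not uniform, and 9 did not pass the test. Among these the groups overlapped in Col3a1 (0.82, limma adjusted p = 0.172), Dcn (0.48, 0.547), Pdgfra (0.38, 0.595) and Lum (-0.23, 0.816). The mean log2 level of the 24 markers was 7.25, 7.56 and 7.29 in shECAD clones 4, 8 and 9, against 6.61, 6.21 and 5.67 in Ctrl clones 2, 3 and 4. The Ctrl clones thus stood in the same order as in Igfbp3, Igfbp4, Igfbp6 and Igfbp7, from clone 2 as the highest to clone 4 as the lowest. Pappa, Igf2 and the mean of the smooth muscle and pericyte markers (5.53, 5.25 and 5.06) had this order too. The endothelial, endoderm, neural and pluripotency means did not. The share of all genes with this order was not counted. One marker, Fap, was below the 25th percentile of each Ctrl array, and 0 of the 24 were so in both groups. When this mean entered the fit as a covariate, Igfbp7 differed by 0.87 ± 0.39 log2 units (SE) and Igfbp3 by 0.995 ± 0.71, and the limma adjusted p was 0.9997 for both. This mean lies apart between the groups, so the fit separates it poorly from the group difference. In the same fit 3 members had larger differences than without the covariate, Igfbp2 with 0.99 ± 0.38, Insr with 0.85 ± 0.44 and Igf1r with 0.48 ± 0.60 log2 units (SE, limma adjusted p = 0.9997 for each), and Igfbp6 was near 0 (0.03 ± 0.37). The part of feeder or other fibroblast RNA in these differences was not tested.

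Smooth muscle and pericyte markers rose in 4 of 10 (Acta2, Tagln, Cnn1 and Myl9, with log2 fold changes of 3.42, 1.73, 1.53 and 1.22) and fell in 0, with a mean log2 level of 6.22 to 6.40 in shECAD clones, against 5.06 to 5.53 in Ctrl clones. The markers without a call ran from 0.07 for Smtn to 0.61 for Myh11 (limma adjusted p = 0.835 and 0.0841). At an unadjusted limma p below 0.05, 6 of the 10 were higher and 0 lower. For this list and those below, 1.90% of all genes were called higher and 1.23% lower. At an unadjusted limma p below 0.05 the shares were 8.96% and 9.07%. Myl9, a myosin light chain gene, lost its call in every fit with 1 clone omitted except the one omitting Ctrl clone 2 (limma adjusted p up to 0.120). Of 9 endothelial markers 0 passed the limma test in either direction, and 2 were higher and 1 lower at an unadjusted p below 0.05. The largest change was 1.001 log2 units for Flt1, and the lower one was Pecam1 (-0.72, limma adjusted p = 0.218). The mean level of the endothelial markers was 4.92 to 4.98 in shECAD clones, against 4.76 to 5.02 in Ctrl clones. Of 10 endoderm markers 0 passed by limma (4 higher and 0 lower at an unadjusted p below 0.05, with 0.99 log2 units for Dab2 the largest), with a mean level of 5.14, 5.11 and 5.54 in shECAD clones 4, 8 and 9, against 5.07, 4.66 and 4.87 in Ctrl clones 2, 3 and 4. Of 8 measured neural markers 1 rose, the intermediate filament gene Nes (1.22 log2 units), no longer called without shECAD clone 8, shECAD clone 9, Ctrl clone 2 or Ctrl clone 4 (limma adjusted p 0.0518 to 0.0992). The list mean was 5.65 to 5.70 in shECAD clones, against 5.39 to 5.55 in Ctrl clones. Emcn among the endothelial and Ttr among the endoderm markers lay below the 25th percentile of each array in both groups. Of 21 pluripotency markers 0 rose and 1 fell by limma (0 higher and 8 lower at an unadjusted p below 0.05). It was the demethylation enzyme gene Tet1 (-0.79 log2 units), whose call was lost without any 1 of the 6 clones (limma adjusted p up to 0.162). Their mean level was 8.97, 8.99 and 8.50 in shECAD clones 4, 8 and 9, against 9.16, 8.98 and 9.33 in Ctrl clones 2, 3 and 4. The list includes Pou5f1 (the Oct4 gene), Sox2 and Klf4, which were also delivered by retrovirus. The part of the delivered copies in their values was not tested. In shECAD clone 9, Igfbp3 and Igf1r were highest and Irs1 lowest. The endoderm, smooth muscle (6.40) and neural (5.70) means were also the highest of the 6 clones there, and the pluripotency mean the lowest. The array of clone 9 had the highest median (5.30), the highest 25th percentile (4.01) and the lowest SD over probesets (2.11) of the 6. The part of these cell types, or of the array's narrower spread, in the values of clone 9 was not tested.

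**Figure D3:**
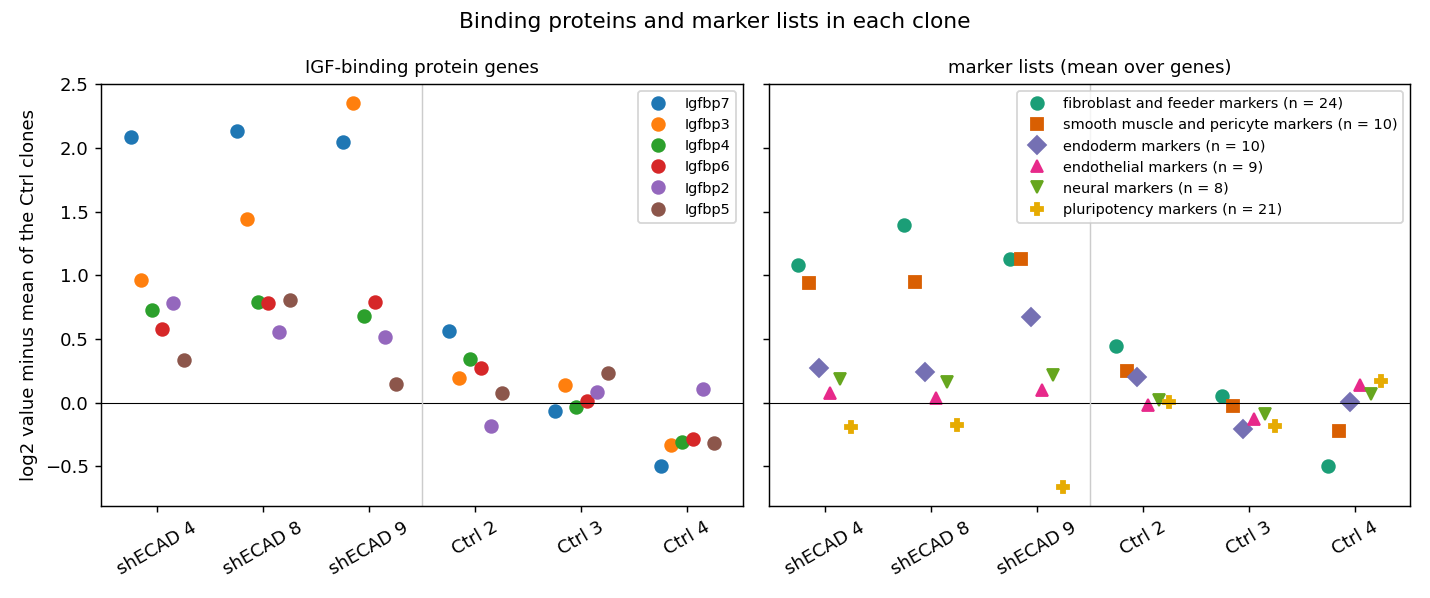
Log2 value of each binding protein gene (left) and mean log2 value of each marker list (right) in each clone, as the difference from the mean of the 3 Ctrl clones (vertical axis). Igfbp7 and the fibroblast and feeder markers lie closer together in shECAD clones than in Ctrl clones, whereas Igfbp3 reaches its highest value in shECAD clone 9.

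The genes most like the members that passed were found by Pearson's r over the 6 arrays. For Igfbp7 they were Ccdc80 (r = 0.999), Fbln2 (r = 0.999) and Dap (r = 0.999). Ccdc80 and Fbln2, which encode matrix proteins, are on the fibroblast and feeder list, and their log2 fold changes were 2.05 and 2.10, beside 2.09 for Igfbp7. For Igfbp3 the nearest were Faxc (r = 0.993), Tmem59l (r = 0.992) and Coro1a (r = 0.992), with log2 fold changes of 0.47, 0.50 and 0.43 that did not pass the test (limma adjusted p = 0.151, 0.131 and 0.205). None of these 3 is on the marker lists. The 6 arrays share the difference between the groups, and 3.69% of genes had r above 0.9 with Igfbp7 and 2.47% with Igfbp3.

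**Figure D4:**
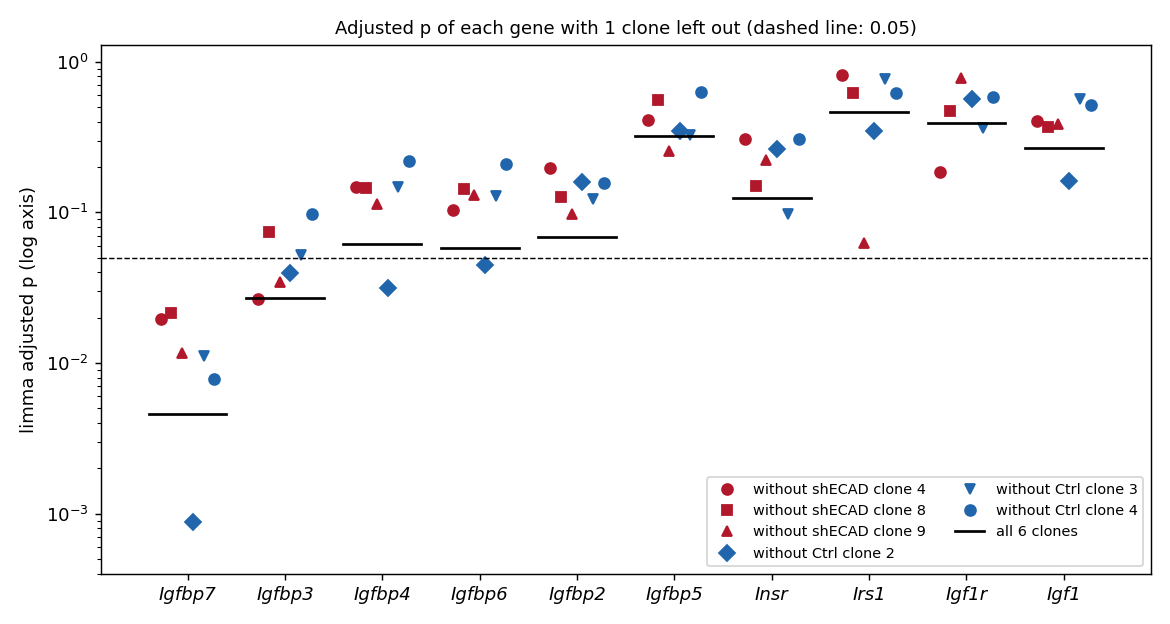
Limma adjusted p (vertical log axis) of each of the 10 genes with all 6 clones (line) and with 1 clone left out (points). Igfbp7 lies below 0.05 in every case, Igfbp3 in 3 of the 6, and Igfbp4 and Igfbp6 only without Ctrl clone 2.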

How the data were processed

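The authors deposited 1 log2 expression value per probeset and array. The submitters' processing notes name RMA and Partek. Their versions and settings, and the build, were not given in the sources used here. Values were used as deposited. Of 28853 probesets, 21789 carry 1 gene symbol in the platform annotation, 1621 several and 5443 none here. Of the first, 21698 matched the RefSeq table by Entrez identifier. The brightest single-symbol probeset stood for each gene (19938 genes), with no filter on dim probesets.

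Groups were compared with limma 3.58.1 (lmFit, eBayes) in R 4.3.3, with no covariate, p-values adjusted by Benjamini and Hochberg over all genes and a call at 0.05. The fit was tested on simulated data with 50 changed genes of each size. It called 2% of changes of 0.5 log2 units, 46% of 1, and 98% of 2 or 3, with 4 false calls. In the simulation, changes of 0.5 and 1 log2 units were thus often missed, and the share missed in these data is not known. Members and lists were chosen with earlier results of these data known. Named are all members, up to 4 called genes of each other list or else the one with the largest change, IGF-axis neighbours and the 3 genes most like each called member. Grb10, Htra1, Pappa2, Adam12, Adam9, Ctsd, Fap, Col3a1, Dcn, Pdgfra, Lum, Smtn, Myh11, Pecam1, Emcn and Ttr were chosen after their values were seen. Pou5f1, Sox2 and Klf4 were named as genes of delivered factors. Alternatives changed the scaling, filter, probeset rule, variance model, weights, threshold, covariate and clones. Figures were drawn with matplotlib 3.10.9.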

Additional observations from a re-analysis of the deposited data

How the results depend on the processing

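No paired analysis was possible because the clone numbers of the 2 groups share only the number 4. By its brightest probeset, each of the 10 genes kept a positive log2 fold change in every alternative without a covariate where tested. With the fibroblast and feeder marker mean as a covariate, 4 turned, each by less than its SE. These were Igf1 (-0.052 ± 0.38 SE), Igfbp4 (-0.032 ± 0.37), Igfbp5 (-0.31 ± 0.45) and Irs1 (-0.073 ± 0.85). Igf2 (-0.66 ± 0.45) and the smooth muscle gene Myl9 (-0.28 ± 0.42) turned as well. In that fit, whose covariate lies apart between the groups, 0 genes and 0 members were called, 743 genes had an unadjusted limma p below 0.05, and Cdh1 had a log2 fold change of -2.19 (adjusted p = 0.9997). Centring each array on its median moved the median of all genes to -0.07, and 2 members were called. Members called numbered 4 after quantile normalization (Igfbp2 and Igfbp4 beside Igfbp3 and Igfbp7), 4 with an intensity-dependent, robust prior (the same genes), and 5 (Igfbp6 too) with array weights, among genes at or above the median level (8 members tested) or at an adjusted p below 0.1. With 1 clone left out, 1 to 4 members and 146 to 543 genes were called, against 2 and 623 with all clones. Array weights gave 1067 called genes, the threshold of 0.1 gave 1278, and a fit without variance moderation gave 3, with 0 members, 2972 genes at an unadjusted p below 0.05 and Cdh1 at -2.13 (adjusted p = 0.194). At 3 clones a group the 8 members without a call differed by 0.36 to 0.73 log2 units, with standard errors of 0.16 to 0.37.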
